A study of Mus musculus with 12 samples.

Results

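The response of the heart to pressure overload while mice ate no BCAA (branched-chain amino acids, that is leucine, valine and isoleucine) was described from 6 of the 12 heart libraries of the study. The members are 15855 genes, all those listed in the comparison of 3 TAC with 3 sham libraries on that diet, and 15670 of them with a mean value of at least 10 were tested. The polyA RNA came from hearts of male C57Bl/6J mice, 12 weeks old. The BCAA-free diet was given from 4 days before surgery until the hearts were taken 2 weeks after it, so sham and TAC hearts share the diet. Transverse aortic constriction (TAC) narrows the aorta so that the left ventricle ejects against a raised pressure, and sham surgery leaves the aorta open. Another 3 sham and 3 TAC libraries came from mice of the same sex, strain and age on a control diet that kept BCAA and the other essential amino acids, and were used here only to ask whether the response to TAC differed between diets. It is not stated in the labels if hearts were pooled, which chambers were taken or at what hour. The p-values therefore measure only how these samples vary, and that spread may be technical.

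A heart under pressure overload enlarges its muscle cells, switches on genes of the fetal heart such as those of natriuretic peptides, skeletal actin and beta-myosin, lays down collagen and usually lowers fatty acid oxidation. Leucine activates the growth kinase complex mTORC1, and a shortage of amino acids is sensed by the kinase GCN2, which acts through the transcription factor ATF4. The heart oxidizes BCAA in mitochondria by transamination and then a dehydrogenase complex that a kinase inhibits and a phosphatase activates. C/EBP-beta, ATF3 and FOS are basic leucine zipper transcription factors that bind short palindromic DNA elements and pair with one another and with relatives.

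Among the genes that passed the test (limma, Benjamini-Hochberg adjusted p below 0.05) with a mean value of at least 100, the 2 largest rises were in Cebpb, which encodes C/EBP-beta, and Acta1, skeletal alpha-actin. The largest fall was in Atf3, a stress-induced repressor, and the third largest in the immediate early gene Fos. The 250 bases before the start of these 4 genes are shown because these genes carry 4 of the largest changes of the comparison. They were read from RefSeq on GRCm38.p6, 5′ to 3′ on the gene's own strand, and capitals mark matches on either strand to the letters named after them.

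Cebpb, chr2:167688665-167688914, plus strand: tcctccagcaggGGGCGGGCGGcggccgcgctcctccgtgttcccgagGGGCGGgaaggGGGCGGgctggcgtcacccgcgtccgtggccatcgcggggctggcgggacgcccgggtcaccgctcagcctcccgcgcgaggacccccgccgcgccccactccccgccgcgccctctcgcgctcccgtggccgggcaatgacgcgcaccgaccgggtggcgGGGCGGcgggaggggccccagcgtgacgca

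Acta1, chr8:123894776-123895025, minus strand: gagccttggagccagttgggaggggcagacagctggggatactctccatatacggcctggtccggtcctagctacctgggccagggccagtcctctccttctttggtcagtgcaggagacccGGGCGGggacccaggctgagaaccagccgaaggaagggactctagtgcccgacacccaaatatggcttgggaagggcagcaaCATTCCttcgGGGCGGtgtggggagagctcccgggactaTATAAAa

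Atf3, chr1:191183334-191183583, minus strand: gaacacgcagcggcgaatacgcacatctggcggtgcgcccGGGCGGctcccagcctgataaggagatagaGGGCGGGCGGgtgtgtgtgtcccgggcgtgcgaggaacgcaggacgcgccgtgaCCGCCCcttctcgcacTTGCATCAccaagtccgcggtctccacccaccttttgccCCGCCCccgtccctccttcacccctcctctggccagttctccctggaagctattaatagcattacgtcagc

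Fos, chr12:85473640-85473889, plus strand: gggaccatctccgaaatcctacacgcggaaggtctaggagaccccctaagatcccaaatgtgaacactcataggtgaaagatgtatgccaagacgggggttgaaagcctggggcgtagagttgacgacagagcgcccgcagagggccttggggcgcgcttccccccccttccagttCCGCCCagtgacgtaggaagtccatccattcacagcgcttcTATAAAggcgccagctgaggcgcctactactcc

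Both strands were searched for the E-box CACGTG and the cAMP response element TGACGTCA. They were also searched for the AP-1 site TGAGTCA, the composite C/EBP and ATF element TGATGCAA and the C/EBP site TTGCGCAA. The other motifs were the MCAT element CATTCC of muscle genes and the ERR element TCAAGGTCA. The GC box GGGCGG, the TATA box TATAAA and 1 exact sequence of the CArG box of the serum response element completed the search. Other forms of the CArG box were not searched for. The absence of a marked CArG box therefore does not show that a window lacks one. The Acta1 window holds ccaaatatgg, another form of this box, which is left unmarked. The Cebpb window is 81.6% G and C and held GGGCGG 5 times, the first pair overlapping. The Acta1 window held CATTCC at -46 to -41, counted from the base before the start as -1, GGGCGG at -128 to -123 and at -36 to -31, and TATAAA at -7 to -2. In the Atf3 window TGATGCAA lay on the opposite strand at -110 to -103, printed as TTGCATCA, beside 5 GC boxes. All positions are counted from the RefSeq start. For Acta1 that start lies 24 bases upstream of the gene's start in the annotation used for gene positions here, so its matches lie further from the latter. For Atf3 it lies 34706 bases from the start in that annotation. The Fos window held TATAAA at -33 to -28 and 1 GC box. Over the 300-base windows of 11146 tested genes, 0.565% held TGATGCAA, 12.3% CATTCC, 7.34% TATAAA and 62.9% GGGCGG. Of the 389 windows of genes called up, 1.54% held TGATGCAA and 13.6% CATTCC, and of the 336 of genes called down 0.298% and 9.82%. These matches describe the letters only.

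Cebpb was 899.9, 909 and 788 in sham and 2268, 2699 and 3046 in TAC libraries, in normalized read counts. The lowest TAC library was more than 2 times the highest sham library. The log2 fold change was 1.62 ± 0.11, adjusted p = 5.76e-05 (± is the standard error, and adjusted p is from limma over all genes tested, here and below). Cebpb lies on chromosome 2, 167688915 to 167690418. Acta1, on chromosome 8, 123891769 to 123894751, was 5008, 5123 and 3700 in sham and 13887, 11724 and 14050 in TAC libraries (1.53 ± 0.13, adjusted p = 0.00199). The 2 groups stood far apart, and sham replicate 3 was the lowest. Atf3, on chromosome 1, was 495, 692 and 549 in sham and 192, 182 and 222 in TAC libraries (-1.53 ± 0.14, adjusted p = 0.000784). Fos, on chromosome 12, was 342, 323 and 208 in sham and 122, 121 and 159 in TAC libraries (-1.09 ± 0.20, adjusted p = 0.0159). Neither gene overlapped between the groups, nor did any of the 977 genes called, so this adds nothing to a call. Over all genes tested, 14.6% had all TAC libraries above all sham libraries and 15.0% all below. Sham replicate 3 was nearest to the TAC range for Fos. Igfbp2, which encodes an IGF binding protein, had the largest log2 fold change of the called genes described here at 3.89 ± 0.46, but from low values: 7.8, 2.6 and 2.12 in sham and 52.3, 51.8 and 114 in TAC libraries. Its relative Igfbp7, a secreted protein of vessels and fibroblasts, was 2553, 2632 and 2036 in sham and 4522, 4585 and 6003 in TAC libraries (1.06 ± 0.13, adjusted p = 0.006). Igfbp2 rests on sham values of a few reads, whereas Igfbp7 was measured at high values.

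**Figure D1:**
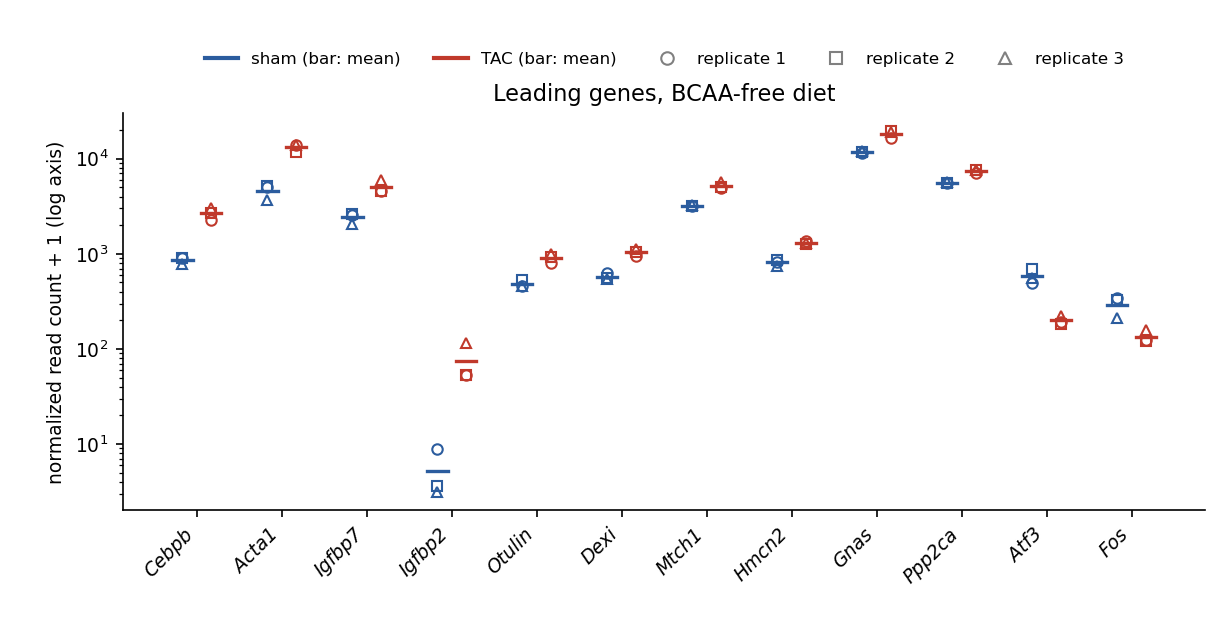
Normalized read counts plus 1 (log axis) of 12 genes called with and without the trends over transcript composition, in the 3 sham (blue) and 3 TAC (red) libraries of the BCAA-free diet. Bars are group means and marker shapes are replicate numbers. The groups do not overlap for any of the 12 genes, as for every called gene, and Atf3 and Fos are the 2 that are lower after TAC.

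Depth in recovered reads was 13848953 to 50150287 in the 6 libraries, with sham replicate 2 the shallowest. The heart label fits the abundance of the alpha-myosin gene Myh6, at 1460548 to 1693945 in the 6 libraries. All 3 TAC libraries were above all 3 sham libraries for Nppa, Nppb, Acta1 and Myh7 (exact two-sided permutation p = 0.1 for each, the smallest that 3 against 3 allows). Myh6 overlapped (exact permutation p = 0.8), as did the calcium pump gene Atp2a2 (exact permutation p = 0.7). Genes of atrial muscle varied between libraries. Bmp10, a growth factor gene of atrial muscle, was 15.6, 0 and 1.41 in sham and 168, 3746 and 133 in TAC libraries. Its high value in TAC replicate 2 stands alone. The summed level of 11 atrial markers was 42943, 40235 and 32436 in sham and 40617, 58909 and 61605 in TAC libraries, with TAC replicates 2 and 3 highest and sham replicate 3 lowest. By limma none of the 11 was called, 4 had an unadjusted p below 0.05 (24.5% of all genes tested did), and DESeq2 called 1; their median log2 fold change was 0.87. Nppa, which atrial muscle makes in quantity, followed the same order of sham libraries at 10397, 8706 and 5599 in sham and 16211, 28291 and 41234 in TAC (1.74 ± 0.45, adjusted p = 0.103). The part of atrial tissue in the Nppa values was not tested.

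Sham replicate 3 also stood apart in genes of the circadian clock. Dbp, a clock output gene, was 2670.5, 3522 and 567 in sham and 5917, 5667 and 4894 in TAC libraries. Arntl, the partner of CLOCK, was 545, 318 and 903 in sham and 132, 182 and 152 in TAC libraries. Per1, a repressor, was 7639, 7279 and 2345 in sham and 6210, 9218 and 7338 in TAC libraries. Sham replicate 3 had the lowest Dbp and Per1 values and the highest Arntl value of the 6. The 3 TAC libraries lay close together for Dbp and Arntl. Time of collection is not given in the labels, and its part was not tested. Clock itself fell, at 1412, 1294 and 1688 in sham and 873, 828 and 777 in TAC libraries (-0.82 ± 0.10, adjusted p = 0.00342). Like every gene called down, it lay below every sham library in all 3 TAC libraries. Without sham replicate 3 its log2 fold change was -0.71, with an adjusted p of 0.00175. With the trends described next removed it was -0.51, adjusted p = 0.0725. Clock was 1 of 2 core clock genes of 18 called down, with Rora (-0.31 ± 0.083, adjusted p = 0.048), while 1, the kinase gene Csnk1e (0.35 ± 0.094, adjusted p = 0.048), rose, against 2.89% of all genes tested called down and 3.34% called up. Rora was 0.0014, adjusted p = 0.996 and Csnk1e 0.19, adjusted p = 0.374 with the trends removed. Per2 (0.90 ± 0.26, adjusted p = 0.097) and Arntl (-1.80 ± 0.38, adjusted p = 0.053) did not pass.

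**Figure D2:**
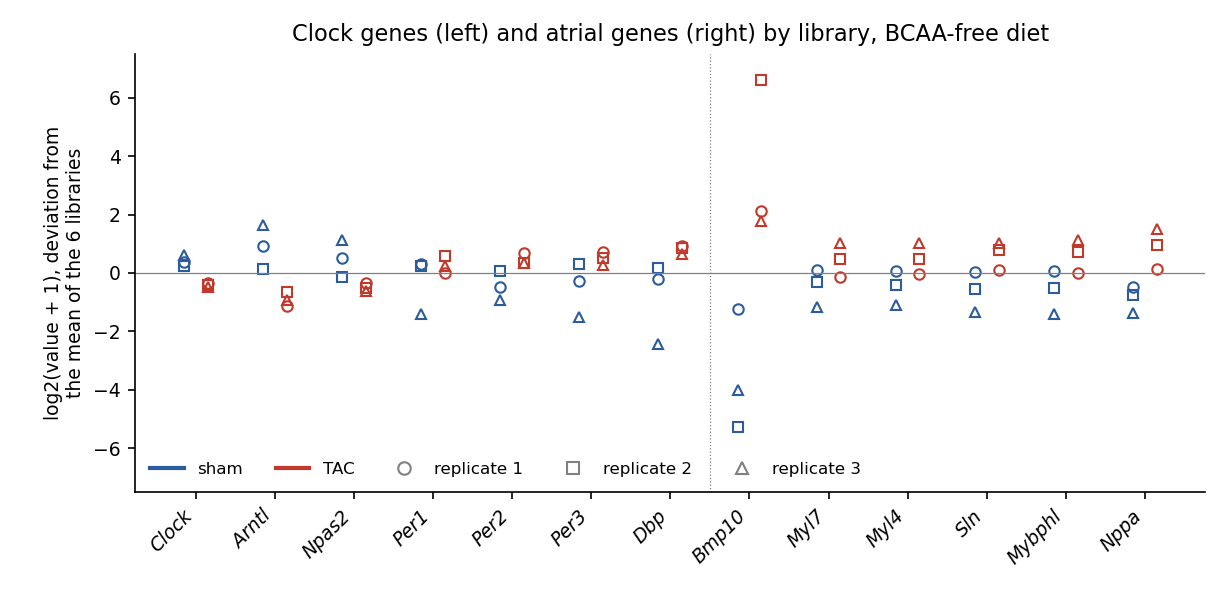
Deviation of each library from the mean of the 6 BCAA-free libraries, in log2 of the value plus 1, for 7 clock genes (left of the dotted line) and 6 genes made in atrial muscle (right); blue is sham, red TAC, and shapes are replicate numbers. Sham replicate 3 is lowest for Per1, Per3 and Dbp and highest for Arntl, and TAC replicate 2 is far above the others for Bmp10.

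By limma 524 genes rose and 453 fell after TAC (3.34% and 2.89% of 15670, 6.23% together). Most changes were small: the median size among the 977 was 0.40 on the log2 scale, 717 were under 0.5, and 29 rises and 10 falls reached 1. The genes that rose had transcripts rich in G and C, and those that fell had long transcripts rich in A and T. Genes were put in 5 equal bins. Of the bin with the highest GC content (at least 55.5%), 322 rose and 1 fell. Of the bin with the lowest (at most 43.9%), 8 rose and 264 fell. Over transcript length, 194 rose and 10 fell in the shortest bin (at most 1724 bases), and 32 rose and 309 fell in the longest (at least 5089 bases). The same slope ran through whole libraries. In the GC-richest bin the median gene lay 0.042, 0.12 and 0.127 above the 6-library mean in TAC replicates 1 to 3, and at -0.093, -0.099 and -0.087 in the sham replicates. TAC replicate 1 had the shallowest slope over GC content and replicate 2 the shallowest over length. After removal of the trends over GC content and length from every library, 77 genes rose and 8 fell (0.492% and 0.0512% of 15635), and 74 of them were among the 977, 67 up and 7 down. Of the 977 genes, 966 kept their direction. The part that RNA quality or library preparation has in these trends was not tested, and the labels give no measure of it.

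**Figure D3:**
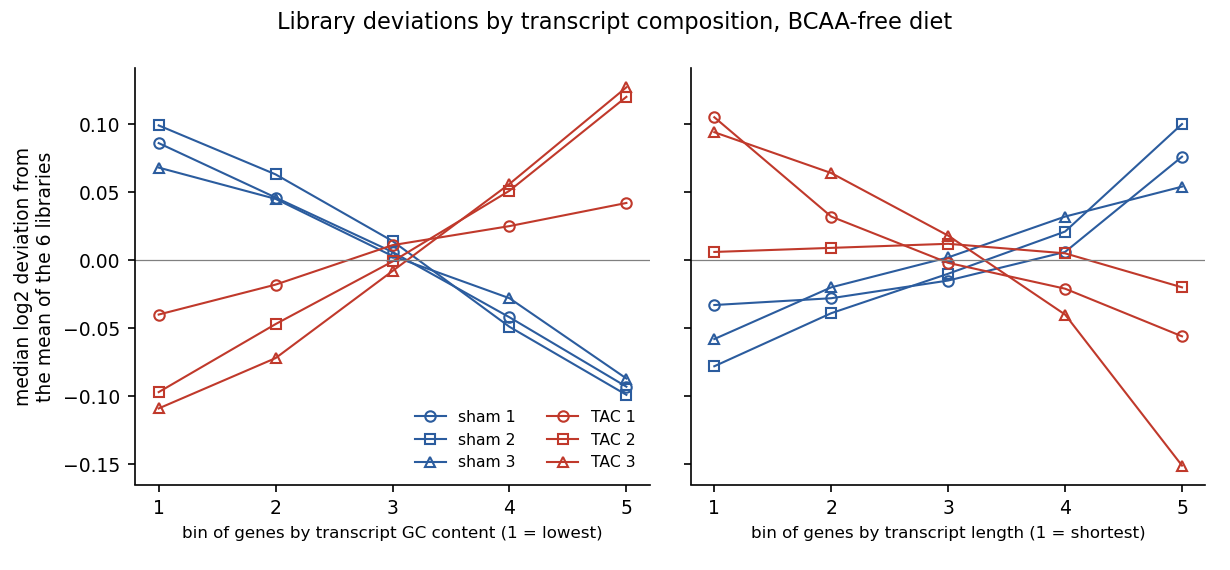
Median log2 deviation from the mean of the 6 BCAA-free libraries for genes in 5 equal bins of transcript GC content (left, 1 = lowest) and of transcript length (right, 1 = shortest); each line is 1 library, blue sham and red TAC. All 3 TAC libraries rise over GC content and all 3 sham libraries fall, and over length the slopes are the other way, with TAC replicate 2 nearly flat.

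Both counts rested on single libraries. Without TAC replicate 3, 41 genes rose and 7 fell, without TAC replicate 2 it was 233 and 149, without sham replicate 1 105 and 35, and without sham replicate 2 93 and 15. Without sham replicate 3 the counts were 593 and 591. All 12 libraries in 1 fit gave 51 and 14. With the trends removed the counts ranged from 2 up and 1 down without TAC replicate 3 to 182 up and 63 down without sham replicate 3, with 3 and 1 without sham replicate 1 and 20 and 5 without sham replicate 2. They were 42 and 6 without TAC replicate 1 and 35 and 5 without TAC replicate 2. Each of the 6 libraries was also left out of the fit without trend removal. Of the 74 genes called in both fits, 27 (without TAC replicate 3) to 67 (without sham replicate 3) were then called. All 74 kept their direction, but this was fixed in advance, because no called gene overlapped between the groups.

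Apart from those already named, the genes called with and without the trends cover several functions. Dexi was 623, 549 and 548 in sham and 940.4, 1037 and 1118 in TAC libraries (0.84 ± 0.10, adjusted p = 0.00302). Otulin, which encodes a deubiquitinase that cuts linear ubiquitin chains, was 461, 526 and 453 in sham and 796, 917 and 1006 in TAC libraries (0.91 ± 0.11, adjusted p = 0.00302). Mtch1, a carrier-family protein of the outer mitochondrial membrane, was 3148, 3194 and 3230.4 in sham and 4877, 5069.6 and 5625 in TAC libraries (0.70 ± 0.074, adjusted p = 0.00199). The sham libraries lay within a narrow band for all 3, and the TAC libraries well above it. Gnas, the stimulatory G protein alpha subunit that couples beta-adrenergic receptors to cAMP, was 11551, 11632 and 12044 in sham and 16411, 19318 and 18903 in TAC libraries (0.63 ± 0.076, adjusted p = 0.00303). Ppp2ca, a catalytic subunit of protein phosphatase 2A, was 5589, 5511 and 5636 in sham and 7061, 7640.2 and 7585 in TAC libraries. Its transcript has a GC content of 44.6%, below the median gene at 49.8%, and its log2 fold change was 0.41 ± 0.067 as deposited and 0.63, adjusted p = 0.00511 with the trends removed. A second phosphatase gene, Ppm1a, had 0.29 ± 0.079 and 0.54, adjusted p = 0.0109. Others called both ways were Aes, a corepressor (0.64 ± 0.073), Hmcn2, an extracellular hemicentin (0.69 ± 0.083), Rtn4, the reticulon Nogo (0.36 ± 0.074), and Srsf9, a splicing factor (0.57 ± 0.094). Fmc1, an assembly factor of the mitochondrial ATP synthase, had 0.53 ± 0.084, and Dirc2, a transporter of the lysosome membrane, 0.37 ± 0.069. Ccdc71l (0.60 ± 0.10) and Nsmce4a, a subunit of the SMC5/6 complex (0.45 ± 0.10), were called both ways too. Gstm1, a glutathione transferase gene, was 1 of the 7 that fell in both fits (-0.30 ± 0.081, and -0.43, adjusted p = 0.0356 with the trends removed).

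Of 16 genes of hypertrophy and the fetal program 4 rose and none fell, and the list median was 0.35 against 0.001 for all genes tested. Over all genes tested 3.34% rose and 2.89% fell, the shares to set beside the counts of this and the later lists. The genes that rose in this list follow. These 4 were Acta1, the beta-myosin gene Myh7 (31236, 31472 and 25489.8 in sham and 37643, 42546 and 55723 in TAC libraries, 0.61 ± 0.15, adjusted p = 0.0495), Synpo2l, a Z-disc protein (0.59 ± 0.11, adjusted p = 0.0169), and Mybpc2, the fast skeletal myosin binding protein (0.64 ± 0.12, adjusted p = 0.0193). TAC replicate 3 was the highest library for Myh7 and Nppa. With the trends removed the median was 0.46, and Acta1 was the 1 member called (1.33, adjusted p = 0.00653). The natriuretic peptide gene Nppb did not pass (0.83 ± 0.19, adjusted p = 0.0552). The number that rose was 1 without TAC replicate 2 or 3 and 2 without sham replicate 2.

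In the sarcomere and Z-disc list 4 of 25 rose and 1 fell (median 0.11), beside 3.34% and 2.89% of all genes tested. Mybpc3, cardiac myosin binding protein C, was 150860.3, 160146 and 147733 in sham and 183470.2, 196429 and 209868 in TAC libraries (0.36 ± 0.074, adjusted p = 0.0209). The calcium-binding troponin gene Tnnc1 (0.37 ± 0.077, adjusted p = 0.0226) and cardiac actin Actc1 (0.36 ± 0.095, adjusted p = 0.0445) rose, and the Z-disc linker Nebl fell (-0.34 ± 0.083, adjusted p = 0.0373). Myoz2, calsarcin 1, which tethers calcineurin at the Z-disc, was 29744, 29324 and 28163 in sham and 37842, 32957 and 37627 in TAC libraries (0.31 ± 0.074, adjusted p = 0.034) and was the member called with the trends removed (0.45, adjusted p = 0.0112). Sham and TAC libraries did not overlap for any of these 5 genes, as for every called gene. None of the list rose without TAC replicate 3, sham replicate 1 or sham replicate 2. Of 21 ion channel genes 4 rose and 1 fell. The potassium channel gene Kcnj2, which sets the resting potential, was 1378, 1489 and 1585 in sham and 878, 1084 and 889 in TAC libraries (-0.65 ± 0.10, adjusted p = 0.00754). It fell, whereas the repolarizing channel genes Kcnh2 (0.47 ± 0.11, adjusted p = 0.0348) and Kcnq1 (0.36 ± 0.078, adjusted p = 0.0244) and the pacemaker channel gene Hcn2 (0.49 ± 0.11, adjusted p = 0.0266) rose. The transcripts of these 3 are GC-rich, and no gene of the list was called with the trends removed. No ion channel gene rose without TAC replicate 2, TAC replicate 3 or sham replicate 1, and 1 did without sham replicate 2. Of 20 calcium handling genes S100a1 rose (0.31 ± 0.082, adjusted p = 0.0466), and none fell.

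Some extracellular matrix genes rose by small steps. Of 34 genes of matricellular and other secreted matrix proteins 8 rose and none fell, with a median of 0.40, and 0.39 with the trends removed. Sparc, which binds collagen and helps its assembly, was 6186, 5798 and 5342 in sham and 7706, 8597 and 10174 in TAC libraries (0.60 ± 0.10, adjusted p = 0.0124), and it was the member called with the trends removed (0.52, adjusted p = 0.0328). Wisp2, a CCN family protein, was 229.8, 266 and 126 in sham and 439.7, 503 and 516 in TAC libraries (1.29 ± 0.25, adjusted p = 0.0317). Mgp, an inhibitor of calcification, was 2782, 2635 and 2708 in sham and 4416, 3243 and 4779 in TAC libraries (0.60 ± 0.13, adjusted p = 0.0297). The groups did not overlap for any of the 3, as for every called gene, and TAC replicate 3 was the highest. The others were Emilin1, Tnxb, Fbln2, Fstl1 and Fstl3, with log2 fold changes of 0.42, 0.46, 0.32, 0.34 and 0.60. Of 23 collagen genes 1 rose, Col16a1 (0.57 ± 0.15, adjusted p = 0.0486), and none fell (median 0.31). The fibrillar collagen genes did not pass: Col1a1 was 1682, 1731 and 1984 in sham and 2018, 2958 and 4409.7 in TAC libraries (0.73 ± 0.30, adjusted p = 0.219) and Col3a1 2464, 1786 and 2061 in sham and 2756, 3362 and 5125 in TAC libraries (0.80 ± 0.25, adjusted p = 0.132). In both the TAC libraries spread widely, with replicate 3 the highest. Postn, periostin of activated fibroblasts, was 1128, 1031 and 802 in sham and 1379, 1478 and 2665 in TAC libraries (0.85 ± 0.29, adjusted p = 0.16). Without TAC replicate 3 no matricellular gene rose, against 1 without sham replicate 1, 2 without sham replicate 2 and 4 without TAC replicate 2. Without TAC replicate 1 6 collagen genes rose, and none did when any other library was left out.

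Some genes of enzymes that shape collagen rose, where 3.34% of all genes tested rose and 2.89% fell. Of 19 genes of collagen processing and crosslinking 5 rose (median 0.22). Bmp1, the protease that trims procollagen, was 1358, 1468 and 1424 in sham and 2014, 1956 and 2050.1 in TAC libraries (0.50 ± 0.071, adjusted p = 0.006), and it was called with the trends removed as well (0.42, adjusted p = 0.0279). Its enhancer Pcolce rose (0.47 ± 0.086, adjusted p = 0.0154), as did Fkbp10, Crtap and P3h3, which modify procollagen in the endoplasmic reticulum (0.40, 0.30 and 0.44 on the log2 scale). The number was 2 without TAC replicate 2 and 1 without TAC replicate 3, sham replicate 1 or sham replicate 2. Of 20 matrix protease and inhibitor genes 4 rose and 1 fell. Adamts2, the procollagen N-proteinase, was 703, 622 and 665 in sham and 888, 1033 and 1221 in TAC libraries (0.65 ± 0.11, adjusted p = 0.014; 0.67, adjusted p = 0.0328 with the trends removed). The protease inhibitor genes Timp1 (0.96 ± 0.25, adjusted p = 0.046) and Timp2 (0.40 ± 0.10, adjusted p = 0.0367) and the protease gene Adamts8 (1.00 ± 0.26, adjusted p = 0.0451) rose, and Adamts4, an aggrecanase, fell (-0.96 ± 0.26, adjusted p = 0.0476). Both procollagen proteinases were thus higher in every TAC library than in any sham library, as was every gene called up. No gene of this list rose without TAC replicate 3 or sham replicate 2, and 1 did without TAC replicate 2, sham replicate 1 or sham replicate 3. Of 20 genes of TGF-beta signalling and its latent complexes 3 rose: Ltbp4 (0.47), Ltbp3 (0.44) and the ligand gene Tgfb3 (0.40). None of them was called with the trends removed, none of the list rose without TAC replicate 3, sham replicate 1 or sham replicate 2, and 1 did without TAC replicate 2. Podn, a small leucine-rich proteoglycan, was 881, 856 and 622 in sham and 1220.3, 1615 and 1662 in TAC libraries (0.93 ± 0.16, adjusted p = 0.0198) and was the 1 of 10 in its list that rose. The summed level of 15 fibroblast markers was 79282, 75818 and 76276 in sham and 81514, 76391 and 87882 in TAC libraries, and 3 of them rose and 1 fell. In bulk tissue more cells of a type and more RNA per cell cannot be told apart.

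Nuclear genes of oxidative phosphorylation had higher medians after TAC. Of 37 genes of complex I, which takes electrons from NADH, 11 rose and none fell, 26 had all TAC libraries above all sham libraries (14.6% of all genes tested did), and the median was 0.23. Ndufb11 was 9492, 9549 and 9814 in sham and 13591, 12022 and 13231 in TAC libraries (0.43 ± 0.071, adjusted p = 0.0117). Ndufs7, an iron-sulfur subunit, rose by a like amount (0.39 ± 0.067, adjusted p = 0.0138). TAC replicate 2 was the lowest TAC library for Ndufb11. The number of complex I genes that rose was 16 without it, 5 without sham replicate 3, 2 without TAC replicate 1, 1 without sham replicate 1 and 0 without TAC replicate 3 or sham replicate 2, while the list median stayed between 0.18 and 0.29. Of 43 genes of complexes II to V 9 rose and none fell (median 0.18), and 1 did without TAC replicate 3 and 2 without sham replicate 1 or 2. With the trends removed the medians were 0.16 for both lists and the called members were Ndufb2 (0.46, adjusted p = 0.0233), Ndufb3 (0.35, adjusted p = 0.0356) and Ndufb11 (0.33, adjusted p = 0.0493) of complex I, and Uqcrq of complex III (0.34, adjusted p = 0.0493) and Atp5g1 of the ATP synthase (0.44, adjusted p = 0.0233). The sixth, Cox7c, passed with the trends removed alone (0.34, adjusted p = 0.0465). Uqcrq was 13982, 13155 and 13472 in sham and 19213, 16005 and 17876 in TAC libraries and Atp5g1 38692, 40844 and 36825 in sham and 48299.9, 46690.4 and 51490.2 in TAC libraries. Both are transcripts of average or low GC content.

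Cytochrome c oxidase has subunits with a muscle and a general isoform. The muscle isoform gene Cox7a1 was 12243, 12676 and 11843 in sham and 18375, 15566 and 18071 in TAC libraries (0.50 ± 0.078, adjusted p = 0.0098), and its general partner Cox7a2 did not pass (0.18 ± 0.088, adjusted p = 0.225). For subunit 6A the order was the other way: the general isoform Cox6a1 was 2364, 2330 and 2396 in sham and 3251, 3619 and 3760.3 in TAC libraries (0.58 ± 0.075, adjusted p = 0.0039), and the muscle isoform Cox6a2 did not pass (0.20 ± 0.076, adjusted p = 0.127). Cox8b, the muscle isoform of subunit 8, rose (0.41 ± 0.076, adjusted p = 0.0169) and Cox8a missed the threshold (0.28 ± 0.082, adjusted p = 0.0604). The differences between partners were not tested, and no isoform gene of the 3 pairs was called with the trends removed. By limma none of 13 mitochondrially encoded genes was called (2 at an unadjusted p below 0.05, 2 by DESeq2 and 0 by edgeR), with a median of -0.12, and 0.032 with the trends removed. Mitochondrial DNA transcripts have a median GC content of 37.1%. Of the 13 genes 3 were above 0.

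Some genes of ribosomes, mitochondrial import and the proteasome rose as well, where 3.34% of all genes tested rose. Of 78 mitochondrial ribosomal protein genes 9 rose and none fell (median 0.17, and 0.13 with the trends removed), and 68 were above 0. Mrpl57 was 648, 716 and 638 in sham and 941, 894 and 968 in TAC libraries (0.49 ± 0.086, adjusted p = 0.0149; 0.60, adjusted p = 0.00903 with the trends removed). Mrps36, also known as a subunit of the oxoglutarate dehydrogenase complex, rose (0.37 ± 0.081, adjusted p = 0.026), as did Mrpl10, Mrps34 and Mrpl38 (0.40, 0.38 and 0.32). The import genes Timm13 (0.35 ± 0.087, adjusted p = 0.0374) and Romo1 (0.30 ± 0.083, adjusted p = 0.0495) were the 2 of 27 that rose. Of 85 cytosolic ribosomal protein genes 6 rose, led by Rpl41 (0.47 ± 0.077, adjusted p = 0.0117) and Rpl31 (0.34 ± 0.075, adjusted p = 0.0258), with a median of 0.11 that was 0.026 with the trends removed. Of 49 proteasome genes 4 rose, among them Psme2 of the 11S activator (0.38 ± 0.075, adjusted p = 0.0194) and the catalytic subunit genes Psmb5 and Psmb6 (0.29 and 0.28). No member of these 4 lists fell. Without TAC replicate 3 none rose in the mitochondrial ribosome, cytosolic ribosome or proteasome list, and without sham replicate 1 the counts were 0, 1 and 0. They were 1, 0 and 0 without sham replicate 2, 4, 2 and 1 without TAC replicate 1, and 2, 6 and 2 without TAC replicate 2. Without sham replicate 3 they were 10, 4 and 3.

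Genes of substrate metabolism changed in both directions, beside 3.34% up and 2.89% down of all genes tested. Of 34 genes of fatty acid uptake and oxidation 1 rose and 3 fell (median 0.020). Lpl, lipoprotein lipase, which frees fatty acids at the vessel wall, was 188514, 185383 and 196762 in sham and 143704, 145872 and 135716 in TAC libraries (-0.42 ± 0.068, adjusted p = 0.0098). The fatty acid transporter gene Cd36 was 53231, 49435 and 53033 in sham and 44705, 40699 and 39564 in TAC libraries (-0.32 ± 0.073, adjusted p = 0.0297), and the nuclear receptor gene Esrrg fell too (-0.38 ± 0.082, adjusted p = 0.0258). Both uptake genes were lower in every TAC library than in any sham library, as was every gene called down. Mlycd, which degrades malonyl-CoA and so relieves its block on mitochondrial fatty acid entry, rose, at 4677, 4184 and 4202 in sham and 5679, 5732 and 4992 in TAC libraries (0.33 ± 0.08, adjusted p = 0.0369). None of the 4 was called with the trends removed, and none of the list was called without TAC replicate 3. The counts were 0 up and 1 down without sham replicate 1 or 2. Of 23 citric acid cycle genes none was called by limma, edgeR or DESeq2, and 7 had an unadjusted p below 0.05. Pgam2, the muscle phosphoglycerate mutase, was the 1 of 27 glycolysis and glycogen genes that rose (0.40 ± 0.079, adjusted p = 0.0198), a share near that of all genes.

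Genes that handle BCAA had members called in both directions, beside 3.34% up and 2.89% down of all genes tested. Of 9 genes of transamination and the dehydrogenase complex none rose and 2 fell. Ppm1k, the phosphatase that activates the complex, was 2801, 3064 and 2946 in sham and 2435, 2418 and 2223 in TAC libraries (-0.32 ± 0.073, adjusted p = 0.0309). Dbt, its E2 core, was 2166, 2218 and 2075 in sham and 1824, 1762 and 1764 in TAC libraries (-0.27 ± 0.069, adjusted p = 0.0413). The kinase gene Bckdk (0.16 ± 0.068, adjusted p = 0.176), the mitochondrial aminotransferase gene Bcat2 (0.16 ± 0.071, adjusted p = 0.184) and the E1 subunit genes Bckdha (0.0085 ± 0.073, adjusted p = 0.961) and Bckdhb (0.0027 ± 0.072, adjusted p = 0.989) did not pass. Ppm1k and Dbt have GC-poor transcripts, and with the trends removed they were -0.073, adjusted p = 0.681 and -0.15, adjusted p = 0.329. Neither was called without TAC replicate 2, TAC replicate 3, sham replicate 1 or sham replicate 2. Of 21 genes of the later branches 1 rose and 1 fell, the latter Acadsb, which oxidizes the isoleucine intermediate (-0.35 ± 0.071, adjusted p = 0.0212). Neither was called with the trends removed, and none of the 21 rose when any 1 library was left out.

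Genes of amino acid sensing and transport had 1 or 2 members called in each direction in each of 3 lists. Over all genes tested 3.34% were called up and 2.89% down. Of 28 genes of the ATF4 and amino acid response 1 rose and 2 fell. Eif4ebp1, the translation repressor that mTORC1 phosphorylates and ATF4 induces, was 2758, 2827 and 2080.3 in sham and 3826, 3957 and 4036 in TAC libraries (0.64 ± 0.11, adjusted p = 0.0143), and it was called with the trends removed as well (0.64, adjusted p = 0.0233). The ATF4 targets Asns, asparagine synthetase, and Ddit3 (0.45 ± 0.19, adjusted p = 0.177) did not pass. Asns was 46.1, 46.9 and 58.5 in sham and 34.9, 57.5 and 65.7 in TAC libraries (0.021 ± 0.26, adjusted p = 0.975). Asns was low and overlapped between the groups. Of 38 genes of mTORC1 and leucine sensing Eif4ebp1 rose, and the Rag GTPase gene Rragd (-0.35 ± 0.079, adjusted p = 0.0297) and the folliculin partner Fnip1 (-0.35 ± 0.09, adjusted p = 0.0444) fell. Of 30 amino acid transporter genes 2 rose and 1 fell. Slc1a5, a glutamine carrier, was 1259, 1546 and 1156 in sham and 1706, 1814 and 1912 in TAC libraries (0.46 ± 0.10, adjusted p = 0.0272), and Slc7a7, a cationic amino acid carrier subunit, was 135, 98.9 and 119.9 in sham and 149, 266 and 207 in TAC libraries (0.78 ± 0.21, adjusted p = 0.0475). Slc7a1, the arginine carrier, fell (-0.41 ± 0.10, adjusted p = 0.0326). With the trends removed Eif4ebp1 was the 1 gene of these 3 lists that was called, and Rragd was -0.21, adjusted p = 0.244, Fnip1 -0.072, adjusted p = 0.743, Slc1a5 0.29, adjusted p = 0.222, Slc7a7 0.69, adjusted p = 0.147 and Slc7a1 -0.32, adjusted p = 0.129. Without TAC replicate 3 no gene of the 3 lists was called. No aminoacyl-tRNA synthetase gene of 36 was called by limma, edgeR or DESeq2 (3 at an unadjusted p below 0.05, median 0.026).

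Stress genes were called in both directions. Of 19 C/EBP and acute response genes Cebpb was the 1 called. Of 32 immediate early genes 3 rose and 2 fell: Atf3 and Fos fell, and Jund (0.44 ± 0.093, adjusted p = 0.0243), Klf4 (0.42 ± 0.083, adjusted p = 0.0195) and Ier5 (0.80 ± 0.16, adjusted p = 0.026) rose. Jund has a GC-rich transcript and was 0.046, adjusted p = 0.822 with the trends removed. Klf4 and Ier5 were not called with the trends removed either, so no rise of this list remained. Atf3 was then -1.61, adjusted p = 0.000281 and Fos -1.17, adjusted p = 0.0232. Jun (-0.12 ± 0.077, adjusted p = 0.374) did not pass. No immediate early gene rose without TAC replicate 3, sham replicate 1 or sham replicate 2, and 1 did without TAC replicate 2. Of 36 genes of chaperones and the unfolded protein response 1 rose and 2 fell, and 7 were above 0 (median -0.12). The lectin chaperone gene Canx (-0.30 ± 0.065, adjusted p = 0.0246) and Dnajc3 (-0.33 ± 0.081, adjusted p = 0.0384) fell, and the cardiac small heat shock gene Hspb7 rose (0.38 ± 0.088, adjusted p = 0.0307). The heat shock gene Hspa8 was 32467, 35161 and 55587 in sham and 35304, 33734 and 41099 in TAC libraries, highest in sham replicate 3, and without that library the list median was 0.001. In the redox list Gpx1 rose (0.37 ± 0.091, adjusted p = 0.0369), and Txnrd1 (-0.39 ± 0.092, adjusted p = 0.0336) and Gstm1 fell.

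Apart from complement, no immune list had more than 1 gene called by limma, where 3.34% of all genes tested rose and 2.89% fell. None of 24 macrophage markers, none of 31 interferon-stimulated genes and none of 8 class II antigen presentation genes was called by limma, with medians of 0.21, 0.15 and 0.37. At an unadjusted p below 0.05 there were 7, 10 and 3, beside 24.5% of all genes tested, DESeq2 called 0, 2 and 1, and edgeR none. Of 19 complement genes 4 rose: C1qa, C1qb and C1qc, which macrophages make (0.41, 0.44 and 0.43), and C4b (0.52). The 3 C1q genes were counted here and not among the 24 macrophage markers, so the absence of calls there leaves them out. C1qc was 835, 802 and 835 in sham and 1086, 1030 and 1228 in TAC libraries (0.43 ± 0.087, adjusted p = 0.0203). The 3 C1q transcripts are GC-rich, and with the trends removed C1qc was 0.22, adjusted p = 0.232 and none of the 4 was called. No complement gene rose without TAC replicate 3, sham replicate 1 or sham replicate 2, and 1 did without TAC replicate 2. The summed level of the macrophage markers was 8969.7, 8992 and 9728 in sham and 9418, 9669 and 10896 in TAC libraries, highest in TAC replicate 3. Il17d, a secreted cytokine, was 144, 117 and 76.2 in sham and 259.6, 300.1 and 220 in TAC libraries (1.24 ± 0.22, adjusted p = 0.0169) and was the 1 of 18 chemokine and cytokine genes called. Mesothelial markers summed to 591, 573 and 486 in sham and 678, 512 and 1182 in TAC libraries, and those of neutrophils and mast cells to 264, 302 and 291 in sham and 278, 284 and 574 in TAC libraries. TAC replicate 3 was the outlying library for both, and without it 41 genes of all tested rose and 7 fell, as given above. Lymphocyte markers were low at 276, 307 and 165 in sham and 315, 387 and 208 in TAC libraries.

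Vessel genes were mixed. Vegfb, a growth factor linked to cardiac vessels and lipid uptake, was 5499.9, 5673 and 5656 in sham and 7602, 8946 and 9672 in TAC libraries (0.63 ± 0.087, adjusted p = 0.00543) but 0.32, adjusted p = 0.08 with the trends removed. Ace, angiotensin-converting enzyme, rose (0.45 ± 0.10, adjusted p = 0.0243), and Tek, the angiopoietin receptor of endothelium, fell (-0.28 ± 0.076, adjusted p = 0.0489). Endothelial markers summed to 87147, 80725 and 75797 in sham and 89003, 83363 and 80678 in TAC libraries and smooth muscle and pericyte markers to 64189.5, 66042 and 60395 in sham and 62022, 60547 and 57104 in TAC libraries, with overlapping groups. The pericyte genes Rgs5 (-0.30 ± 0.076, adjusted p = 0.0394) and Abcc9 (-0.38 ± 0.10, adjusted p = 0.0453) fell. Hba-a2, an alpha-globin gene whose reads can be shared with its near-identical copy, was 430.4, 344 and 319 in sham and 574, 526 and 563 in TAC libraries (0.62 ± 0.12, adjusted p = 0.0193). The 8 blood cell markers summed to 11843, 11478 and 10399.9 in sham and 14262, 11275 and 11879 in TAC libraries.

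Lists of ubiquitin-pathway and nuclear proteins had the lowest medians as deposited. All 28 genes of large ubiquitin ligases and deubiquitinases were at or below 0, 22 had every TAC library below every sham library (15.0% of all genes did), and 7 fell (median -0.25). Usp9x was 2768, 3283 and 2941 in sham and 2229.5, 2243 and 1869 in TAC libraries (-0.51 ± 0.092, adjusted p = 0.0154), and Usp34 (-0.40 ± 0.085, adjusted p = 0.0244) fell too. Their transcripts are long: that of Usp9x has 11887 bases. Of 35 chromatin modifier genes 9 fell and none rose (median -0.22), for example the histone methyltransferase gene Kmt2a, at 2419.5, 2408 and 2435 in sham and 1956, 1862 and 1484 in TAC libraries (-0.46 ± 0.10, adjusted p = 0.0229), and the ATPase gene Atad2b (-0.95 ± 0.17, adjusted p = 0.0152). TAC replicate 3 was the lowest library for Usp9x and Kmt2a, and without it, or without sham replicate 2, no gene of either list was called. Without sham replicate 1 the counts were 1 and 0, and without TAC replicate 2 they were 2 and 4. Of 350 genes named Zfp, zinc finger proteins, 3 rose and 13 fell (median -0.19), beside 3.34% up and 2.89% down of all genes tested. Zfp748 was among those that fell (-0.78 ± 0.20, adjusted p = 0.0405), and Zfp579 rose (0.74 ± 0.10, adjusted p = 0.00543). Of 52 splicing factor genes 2 rose and 5 fell: Srsf9 and Srsf2 (0.36 ± 0.072, adjusted p = 0.0203) rose, and the kinase gene Clk1 was among those that fell (-0.50 ± 0.09, adjusted p = 0.0152). With the trends removed no ubiquitin, chromatin or zinc finger gene of these lists was called, and the medians were -0.042, -0.059 and -0.066. Of 17 iron handling genes none rose and 3 fell. Those were Ireb2, an iron sensor (-0.38 ± 0.084, adjusted p = 0.0271), the ferrireductase gene Steap4 (-0.31 ± 0.082, adjusted p = 0.0478) and the exporter gene Slc40a1 (-0.46 ± 0.11, adjusted p = 0.0374). With the trends removed none of the 17 was called (median -0.016), and at most 1 fell when any 1 library was left out. Other falls were Mid1 (-0.91 ± 0.24, adjusted p = 0.0464) and those of the copper transporter gene Atp7a (-0.88 ± 0.18, adjusted p = 0.0231) and Lmbrd2 (-1.17 ± 0.25, adjusted p = 0.0249), and Slc41a3, a magnesium transporter gene (-0.79 ± 0.16, adjusted p = 0.038).

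**Figure D4:**
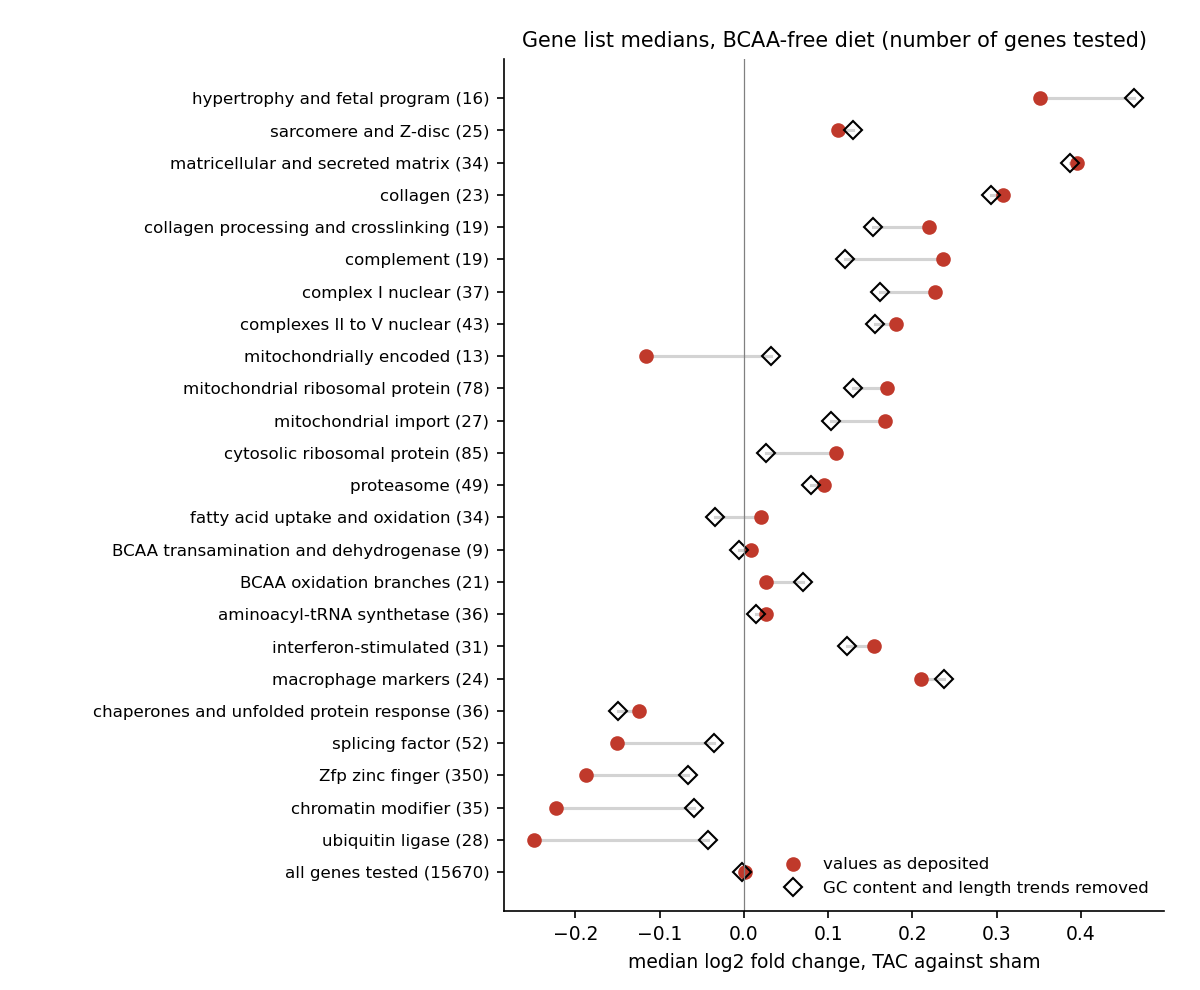
Median log2 fold change of TAC against sham on the BCAA-free diet for 24 gene lists and for all genes tested (numbers of genes in brackets), from the deposited values (red) and after removal of the trends over GC content and length (black diamonds). The ubiquitin ligase median moves from -0.25 to -0.042, and the matricellular median stays at 0.40 and 0.39.

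Whether the response to TAC differed between diets was tested as an interaction in the 12 libraries, which gives the TAC effect on the BCAA-free diet minus that on the control diet. Of 15195 genes 747 had a positive and 567 a negative interaction (4.92% and 3.73%). In complex I 27 of 37 and in complexes II to V 33 of 43 had a positive interaction and none a negative one. Their median log2 fold changes were 0.23 and 0.18 on the BCAA-free diet and -0.61 and -0.56 on the control diet. Ndufb11 had an interaction of 1.09 ± 0.24, adjusted p = 0.0208, from 0.43 and -0.66 on the 2 diets. For Cox7a1 it was 1.56 ± 0.34, adjusted p = 0.0222, and for Uqcrq 1.17 ± 0.25, adjusted p = 0.0204. The 13 mitochondrially encoded genes had none called (interaction median -0.026). Of 78 mitochondrial ribosomal protein genes 28 and of 34 fatty acid genes 12 were positive, among them Mlycd (1.05 ± 0.16, adjusted p = 0.00587). With the trends removed 22, 23, 20 and 9 of these 4 lists were positive, with a background of 3.31% of 15163 genes. The mitochondrial ribosome and fatty acid counts were 1 and 3 without BCAA-free TAC replicate 3 and 1 and 2 without sham replicate 1 or 2 of that diet. The counts for complex I and for complexes II to V rested on single libraries too. They were 0 and 1 without BCAA-free TAC replicate 3, 4 and 2 without TAC replicate 1, 2 and 2 without sham replicate 1 and 1 and 1 without sham replicate 2 of that diet. Without BCAA-free TAC replicate 2 they were 21 and 20, and without its sham replicate 3 15 and 14. On the control diet they were 9 and 10 without TAC replicate 2 and 12 and 11 without TAC replicate 3, and at most 36 and 38. The list medians stayed between 0.60 and 0.95 and between 0.59 and 0.87.

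Some collagen and hypertrophy genes had negative interactions. Of 23 collagen genes 9 had a negative interaction (median -1.15), with list medians of 0.31 on the BCAA-free and 1.40 on the control diet, and 4 did without BCAA-free TAC replicate 3 or sham replicate 2 and 13 without control diet TAC replicate 1 or 2. Of 16 hypertrophy genes 4 were negative, among them Mybpc2 (-1.06 ± 0.21, adjusted p = 0.0169), against 3.73% of all genes. Of 34 matricellular genes 2 were, a share near that of all genes, and the number was 1 without BCAA-free sham replicate 1. Leaving out TAC replicate 1, 2 or 3 of the control diet made it 7, 6 or 4. The hypertrophy count was 1 without BCAA-free TAC replicate 1 or 3 or sham replicate 1 or 2, 8 without control diet TAC replicate 1, and 2 without control diet TAC replicate 3 or sham replicate 3. Control diet TAC replicate 2 stood apart in such genes. On that diet Sparc was 8338, 6670 and 9880.4 in sham and 18648, 41244 and 19328 in TAC libraries, and Myh7 was 16458, 18944 and 13969.6 in sham and 50308, 141282 and 40200.4 in TAC libraries. Without that library the interaction medians were -0.86 for the collagen, -0.58 for the matricellular and -0.66 for the hypertrophy list, against -1.15, -0.92 and -0.92 with it. Acta1 did not pass (-1.20 ± 0.40, adjusted p = 0.0789), nor did Postn (-2.23 ± 0.72, adjusted p = 0.0854), Sparc (-0.98 ± 0.36, adjusted p = 0.106) or Nppa (-0.66 ± 0.92, adjusted p = 0.674). Among the leading genes Cebpb had an interaction of 2.20 ± 0.26, adjusted p = 0.00478. On the control diet it was 642, 572 and 1079 in sham and 475, 479.6 and 519 in TAC libraries, with a log2 fold change of -0.58 ± 0.21, adjusted p = 0.116, there. The groups did not overlap on either diet, in opposite directions, and its control diet change did not pass. Atf3 had -1.38 on the control diet and an interaction of -0.15 ± 0.95, adjusted p = 0.937. It varied widely there, at 271.5, 1220.3 and 2490.4 in sham and 238.7, 529.1 and 367.5 in TAC libraries. Fos did too, at 56.57, 871.1 and 1254.8 in sham and 127.6, 597 and 232.1 in TAC libraries (interaction -0.49 ± 1.465, adjusted p = 0.859). With this spread no difference between diets was detected for either gene. Of the 74 genes called in both fits 32 had an interaction, all positive, where 4.92% of all genes did. The 74 were chosen by their change on the BCAA-free diet, 67 of them as rises, and that change is part of the interaction, so nothing is read from this count. The 32 included Aes (1.11 ± 0.15, adjusted p = 0.00478), Dexi (0.90 ± 0.14, adjusted p = 0.00711), Gnas (0.71 ± 0.12, adjusted p = 0.0101) and Dirc2 (0.76 ± 0.11, adjusted p = 0.00587). In BCAA handling Bcat2 (0.55 ± 0.13, adjusted p = 0.0231), Bckdha (0.68 ± 0.18, adjusted p = 0.0367) and Bckdk (0.50 ± 0.13, adjusted p = 0.0321) had positive interactions, with log2 fold changes of 0.16, 0.0085 and 0.16 on the BCAA-free diet and of -0.39, -0.68 and -0.34 on the control diet. Of the 12 libraries the 3 BCAA-free TAC ones had the most positive rank correlations with GC content (Spearman 0.2, 0.403 and 0.391 across genes), and control diet sham replicate 3 the lowest with length (Spearman -0.41 across genes), so diet and these library trends cannot be told apart in the interaction. Scaled to library totals alone the counts were 388 positive and 1465 negative, with the median of all genes at -0.20.

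**Figure D5:**
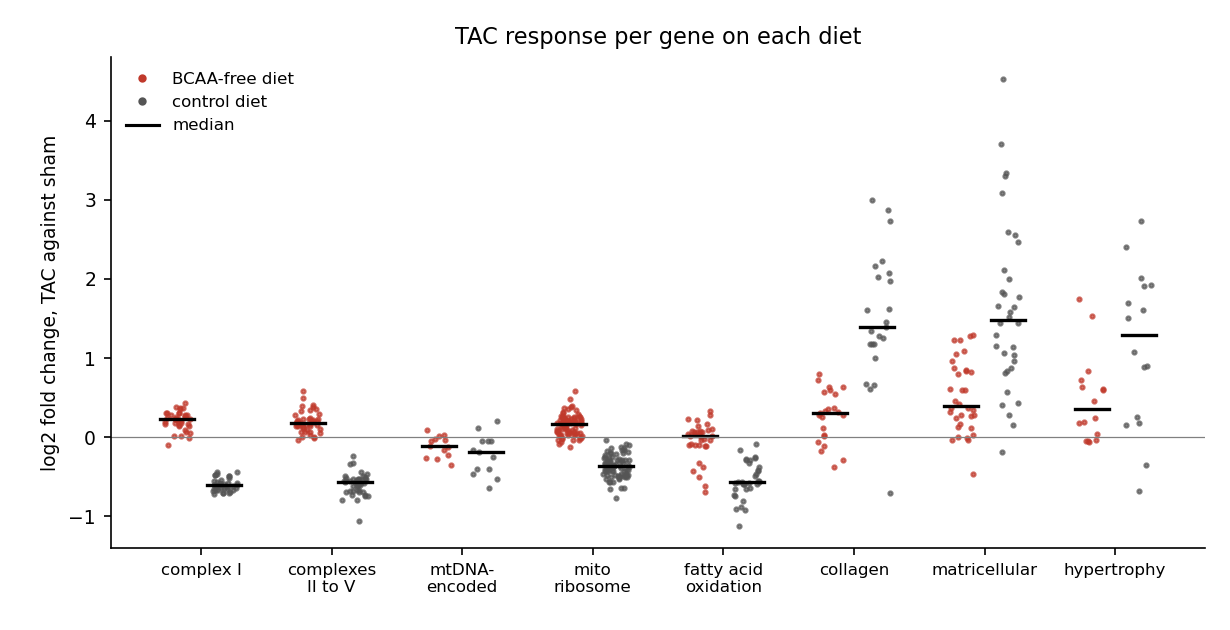
Log2 fold change of TAC against sham for each gene of 8 lists, on the BCAA-free diet (red) and on the control diet (grey), with list medians as bars. The medians of nuclear respiratory chain genes lie above 0 on one diet and below it on the other, while the collagen, matricellular and hypertrophy medians lie higher on the control diet.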

How the data were processed

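PolyA RNA from heart was sequenced in 12 libraries, 3 per group, and the 6 of the BCAA-free diet give the main comparison. Normalized read counts (a signal scaled between the libraries of 1 table) were taken as the authors deposited them. Trimmomatic 0.36, STAR 2.5.2b, Subread 1.5.2, DESeq2 and the builds GRCm38 and mm10 are named in the submitters' processing notes, which were used here without their roles or order. The authors' deposited table also holds log2 fold changes and adjusted p-values: 755 rises and 703 falls, which include 962 of the 977 genes called here. Every value was a whole multiple of what 1 read is worth, within a tolerance of 0.01 reads, and the recovered reads gave the depths and the count tests. No column of samples outside the series' labels was present.

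TAC and sham were compared with limma 3.58.1 in R 4.3.3 (trend and robust) on log2(value + 1), where the mean of the 6 values was 10 or more, and a gene was called at a Benjamini-Hochberg adjusted p below 0.05. On this scale the change of low genes is understated. The interaction with diet was fitted on the 12 libraries of both tables, each scaled separately by the authors, so only changes within a table were compared. Trends over transcript GC content and log2 length were removed per library with natural splines of 5 degrees of freedom. Gene IDs matched the annotation for 99.78%. Alternatives were TMM, library totals, other filters, a pseudocount of 10, a replicate block, edgeR 4.0.16, DESeq2 1.42.0, voom, all 12 libraries in 1 fit, and each library left out. Leaving libraries out after removing the trends was chosen after seeing the data. The fitting script was tested on simulated data.

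The genes named are the 12 largest rises and falls of called genes whose mean is 100 or more, the 20 with the smallest p called with and without the trends, up to 4 called members per list by p, a set of genes of interest, the 10 with the smallest interaction p, and members singled out after their values were seen. Members and gene lists were chosen with earlier results of these data known. No pair of replicate libraries agreed within counting noise (mean chi-square per gene of 4.64 to 66.96, where counting alone gives 1), so none was merged as a library deposited more than once; this does not show that they are biological replicates. Some genes that meet this rule are not reported here.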

Additional observations from a re-analysis of the deposited data

Results flagged for a closer look

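For the genes below the effect of TAC on the BCAA-free diet differed from that on the control diet by limma's interaction test (adjusted p below 0.05), and values are the first effect minus the second on the log2 scale. Subunits of the respiratory chain and other mitochondrial proteins had positive values: 0.84 for Atp5g1, 0.92 for Cox6a1, 0.82 for Cox6a2, 1.56 for Cox7a1, 0.93 for Cox7c, 1.14 for Cox8b, 1.34 for Fmc1, 1.05 for Mlycd, 0.70 for Mrpl38, 0.94 for Mrps36, 1.09 for Ndufb11, 1.01 for Ndufb2, 0.73 for Ndufb3, 1.04 for Ndufs7, 0.94 for Romo1, 0.83 for Timm13 and 1.17 for Uqcrq. So did genes of BCAA breakdown, the proteasome, the ribosome and splicing: 0.55 for Bcat2, 0.68 for Bckdha, 0.50 for Bckdk, 0.68 for Psmb5, 0.74 for Psmb6, 0.86 for Rpl41 and 0.56 for Srsf2. Channel and signalling genes had positive values too: 0.71 for Gnas, 0.79 for Hcn2, 1.03 for Kcnh2, 0.65 for Kcnq1, 1.23 for Il17d, 0.56 for Ppp2ca and 1.03 for Vegfb. Among regulators and other genes the value was positive: 2.20 for Cebpb, 1.11 for Aes, 0.79 for Ccdc71l, 0.90 for Dexi, 0.76 for Dirc2, 0.70 for Hba-a2, 0.86 for Nsmce4a and 0.73 for Zfp579. Negative values were -1.91 for Adamts4, -1.09 for Atp7a, -0.59 for Ireb2, -1.59 for Mid1, -1.06 for Mybpc2, -0.69 for Rgs5, -0.53 for Rora, -0.59 for Steap4 and -1.15 for Zfp748. Many of these genes were named because they were called on the BCAA-free diet, and that effect is part of the interaction. Nothing is therefore read from the pattern of signs among them. The part of diet and of library trends over GC content and length in these differences cannot be told apart.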

How the results depend on the processing

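The 977 calls (524 up, 453 down) became 85 (77 and 8) once trends over GC content and length were taken out, 98 (82 and 16) with GC content alone, 400 (315 and 85) with length alone, and 65 (51 and 14) with all 12 libraries in 1 fit. DESeq2 gave 1490 (771 and 719). The cause of these shifts was not tested. Leaving out 1 library gave 48 to 1184 calls, 41 to 593 up and 7 to 591 down. The interaction had 1314 calls, 643 with the trends removed (502 positive, 141 negative) and 388 positive and 1465 negative on library totals. Leaving out 1 library gave 216 to 1733, 127 to 975 positive and 89 to 758 negative. TMM, edgeR, voom, the filters and the other pseudocount kept both totals within 1.5 times where they were run. Same-numbered sham and TAC libraries deviated with correlations of -0.09, 0.081 and -0.015, beside -0.17 to 0.174 for differently numbered ones. With 3 libraries a group this cannot decide whether the numbers pair the samples, and the labels do not say. A replicate block gave 675 up and 646 down, 163 and 31 with the trends removed as well (194), and 908 and 676 for the interaction. Some log2 fold changes changed sign, among them the called fall of Rora (-0.31). With both trends removed, with or without the block, they were 0.055 for Atp2a2, -0.21 for Bckdha, -0.044 for Bckdhb, -0.0084 for Myh6 and 0.0014 for Rora. With GC content alone they were -0.17 for Bckdha and -0.11 for Myh6, and with length alone -0.048 for Asns, 0.041 for Atp2a2, -0.063 for Bckdha and -0.081 for Bckdhb. Voom gave -0.001 for Asns, and library totals -0.013 for Bckdha and -0.018 for Bckdhb. Leaving out 1 library, the values ran from -0.16 to 0.29 for Asns, -0.14 to 0.0004 for Atp2a2, -0.039 to 0.061 for Bckdha, -0.027 to 0.051 for Bckdhb, -0.27 to 0.11 for Hspa8 and -0.022 to 0.071 for Myh6. With 3 libraries a group and a 13848953-read sham library, small changes of low genes were not detectable.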
